A study of Mus musculus with 6 samples.

Results

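The data are the exon bins of Ncam1 (Entrez 17967, also known as CD56), selected on the authors' usage test, since a table lists only bins that passed it, and taken as every row that carries this symbol in the 2 tables of exon usage the authors deposited for knockdown of Ptbp1 and of Pnky. The table for Ptbp1 knockdown lists 14 Ncam1 bins among 958 bins of 602 genes, and the table for Pnky knockdown lists 0 Ncam1 bins among 249 bins of 175 genes. The RNA came from cultured cells of the ventricular-subventricular zone, a neural stem cell niche of the mouse forebrain, taken from C57/B6 mice at postnatal day 5-7 and grown in serum-containing medium with EGF and FGF. All groups carried a short hairpin RNA in the PSICO-R vector and were sorted for its fluorescent marker. The hairpin targeted luciferase in shCtrl, the long noncoding RNA Pnky in shPnky and Ptbp1 in shPtbp1, with 2 libraries in each group. The labels name no animal or culture for either library of a group, so the spread between libraries may be technical.

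Ncam1 encodes a neural cell adhesion molecule of the immunoglobulin superfamily, which binds itself and other partners across cell contacts and carries polysialic acid on migrating neuroblasts. Alternative 3′ ends and exons give its main forms: a form held to the membrane by a glycosylphosphatidylinositol (GPI) anchor, best known from glia, a transmembrane form with a short cytoplasmic tail, and a transmembrane form with a long tail, best known from neurons. The outer immunoglobulin and fibronectin type III domains are common to these forms. Ptbp1 encodes an RNA-binding protein that regulates alternative exons and 3′ ends and is abundant in neural progenitors.

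A bin is an exon or a part of one, numbered within its gene, and the first bin carries no number (the unsuffixed bin). The tables give no coordinates for bins, and the genome build named in the submitters' processing notes is mm9. In the GENCODE M21 annotation, which uses the build GRCm38, Ncam1 lies on the minus strand of chromosome 9 from 49502136 to 49798925. Transcript Ncam1-204 (18 exons, 848 codons without the stop) ends in the transmembrane terminal exon, and Ncam1-201 (16 exons, 725 codons) ends in another terminal exon (49517278 to 49517582), the end known from the GPI-anchored form. The partial transcript Ncam1-205 holds an 801-base exon, at 49506853 to 49507653, which none of the transcripts with a full start contains and which lies just before the transmembrane terminal exon, where the exon of the long cytoplasmic tail is known to lie.

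The coding sequences that set these forms apart are shown because the bins with the largest shifts lie at this end of the gene if numbers run along the chromosome. All are exonic, written 5′ to 3′ on the minus strand from the GENCODE M21 transcripts, with stop codons in capitals. The first pair are the exons found in both full-length transmembrane transcripts and absent from Ncam1-201, of 208 bases (49509705 to 49509912) and 117 bases (49508589 to 49508705). The next is the first 150 of the 801 bases of the exon in Ncam1-205 (49507504 to 49507653). The last pair are the coding ends of the terminal exons of Ncam1-204 (49505443 to 49505563) and Ncam1-201 (49517506 to 49517582).
Exon of 208 bases: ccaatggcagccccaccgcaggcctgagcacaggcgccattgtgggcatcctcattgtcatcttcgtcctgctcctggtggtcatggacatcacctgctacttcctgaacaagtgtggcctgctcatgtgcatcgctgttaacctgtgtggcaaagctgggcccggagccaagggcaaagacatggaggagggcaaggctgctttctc
Exon of 117 bases: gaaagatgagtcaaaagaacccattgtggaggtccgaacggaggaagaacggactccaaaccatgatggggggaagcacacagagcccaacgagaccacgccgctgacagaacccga
Start of the 801-base exon: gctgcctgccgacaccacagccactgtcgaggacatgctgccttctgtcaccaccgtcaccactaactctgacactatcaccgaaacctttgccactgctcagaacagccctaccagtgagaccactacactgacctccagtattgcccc
Coding end of Ncam1-204: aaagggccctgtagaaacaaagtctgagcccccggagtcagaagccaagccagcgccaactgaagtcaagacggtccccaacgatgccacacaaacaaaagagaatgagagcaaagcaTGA
Coding end of Ncam1-201: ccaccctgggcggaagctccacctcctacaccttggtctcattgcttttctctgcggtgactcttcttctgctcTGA

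Whether bin numbers run along the chromosome or along the transcript was read from other genes. Among genes of the shPtbp1 table with at least 3 listed bins, Ncam1 left out, the lowest-numbered bin had more shCtrl reads than the highest-numbered bin in 19 of 24 genes on the minus strand and in 7 of 34 on the plus strand. The median ratio of these reads was 6.53 on the minus strand and 0.269 on the plus strand. The smaller shPnky table gave 5 of 5 genes on the minus strand and 4 of 8 on the plus strand. Terminal exons at the 3′ end are usually long, so this order is the one given by numbers that increase along the chromosome, with low numbers at the 3′ end of Ncam1. Placing the bins by rank on 20 exons, the merged exons of the 3 full-length transcripts with a RefSeq match (Ncam1-201, Ncam1-202 and Ncam1-204) and the 801-base exon, puts the unsuffixed bin on the transmembrane terminal exon, bin 1 on the 801-base exon, bins 2 and 3 on the exons of 117 and 208 bases, bin 4 on the terminal exon of Ncam1-201, and bins 5 to 18 on exons present in all 3 of these transcripts. With this placement, shCtrl reads and exon length of the 9 listed bins from 5 up had a Spearman's rho of 0.82 across bins; numbering along the transcript gave -0.88, and leaving out the 801-base exon gave -0.65. Ncam1-205 holds 3 further exons, of 3, 15 and 30 bases, and Ncam1-203 has an end of its own, which were left out of the placement. Adding these 3 exons, for 23 in all, would shift the bins above 6 but none below. For the 9 bins it gave a rho of 0.45 along the chromosome and -0.03 along the transcript. Over all 14 listed bins the rho was weaker, at 0.42 with the placement on 20 exons and 0.30 with 23 exons. Over these 14 bins, numbering along the transcript on 20 exons gave -0.15, and leaving out the 801-base exon gave -0.07. These are descriptions over 9 or 14 bins of 1 gene, and the 9 bins were chosen after the values were seen. Overlapping exons were merged, though a bin can be a part of an exon. Ncam1-202 ends at 49505048, inside the transmembrane terminal exon. A cut there would make a further bin and move bin 1 and all higher bins to other exons, which was not tried. The placement rests on rank alone, in another build than the authors', and no position in the files checks it.

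The knockdown was examined first. The reads of bin 13 of Ptbp1 were 22334 and 19594 for shCtrl, against 4967 and 4961 for shPtbp1. The shPtbp1 libraries thus had the lower reads of the targeted gene, as labelled. No bin of Pnky is listed in either table. Listed reads summed to between 3514859 and 3920040 per library in the shPtbp1 table, which covers called bins and is not the library size.

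In Ptbp1 knockdown the 4 lowest-numbered bins of Ncam1 were called as used less, and all other listed bins as used more. For 7 of the higher bins (5, 9, 11, 12, 13, 16 and 17) the direction of the share of listed reads depended on the denominator. Without the unsuffixed bin in it, their shares were lower in shPtbp1, and the largest difference was -0.562 points. Bin 4 remained in that denominator, and its share there was 5.76 points higher in shPtbp1. The authors' deposited table calls bins with an adjusted p under 0.01 in their test of usage; this contrast chose the bins, so the values below are a description and no further test was made. Of all 160290 bins tested for shPtbp1, 0.598% were called, 0.322% as higher and 0.268% as lower. The 14 Ncam1 bins split into 10 higher (71.4%) and 4 lower, against 54.6% higher among all 945 called bins with a fold. The highest bin number is 18, so the gene had at least 19 bins. Of these, 5 (bins 6, 7, 8, 14 and 15) are not listed, so they were not among the called bins and no values are given for them. Only 1 gene of the table had more listed bins.

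The unsuffixed bin, at the transmembrane terminal exon by rank, held 8997 and 8490 reads in shCtrl, against 3444 and 3376 in shPtbp1. The groups did not overlap, and each knockdown library had fewer than 1 read for every 2 in either control library. Its test statistic ranked 3 among all 958 listed bins, and the authors' deposited table gives it an adjusted p written as 0, with a log2 fold of -0.61. That fold is the ratio of fitted usage values, 129.8 in shCtrl and 85.0 in shPtbp1, which are on a compressed scale: the log2 ratio of its mean share of listed Ncam1 reads was -1.46.

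Bins 2 and 3 fell further in proportion. Bin 2, at the 117-base transmembrane exon by rank, held 599 and 616 reads in shCtrl, against 175 and 200 in shPtbp1. Bin 3, at the 208-base exon by rank, held 738 and 781 reads in shCtrl, against 248 and 250 in shPtbp1. In both bins every knockdown library lay far below both control libraries. The share of bin 2 among the reads of the 14 listed bins went from 1.73% ± 0.12 to 0.496% ± 0.042 (SD, n = 2), and that of bin 3 from 2.16% ± 0.20 to 0.658% ± 0.0025 (SD, n = 2). The authors' deposited table gives log2 folds of -0.91 and -0.86, with adjusted p of 7.79e-54 and 3.41e-48. These are adjacent in number and lay close together in level: there were 0.800 ± 0.016 reads of bin 2 per read of bin 3 in shCtrl and 0.753 ± 0.067 in shPtbp1 (SD, n = 2), a difference smaller than the SD of the knockdown libraries.

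Bin 1, at the 801-base exon by rank, was the bin with the fewest reads, 140 and 156 in shCtrl and 92 and 96 in shPtbp1. It was lower in both knockdown libraries, with a log2 fold of -0.41 and an adjusted p of 0.000579 in the authors' deposited table. It fell less than its neighbours. Per 100 reads of bins 2 and 3 together, bin 1 held 10.5 and 11.2 reads in shCtrl, against 21.7 and 21.3 in shPtbp1, so the reads of bin 1 relative to these bins were 1.99 times as high after knockdown. The unsuffixed bin also fell less than bins 2 and 3: it held 6.73 and 6.08 reads per read of those bins in shCtrl and 8.14 and 7.50 in shPtbp1. In these libraries the 4 bins that fell did not keep a fixed ratio, and the groups did not overlap in either ratio. With 2 libraries per group this is weak ground. For the unsuffixed bin, the gap between groups, from 6.73 to 7.50, was little wider than the spread within each group. The ratio of bin 1 rests on its 92 to 156 reads.

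Bin 4, at the terminal exon of Ncam1-201 by rank, moved the other way. It held 8481 and 7833 reads in shCtrl, against 12659 and 12465 in shPtbp1. It was the listed bin with the most reads after knockdown, and its share of listed reads went from 23.1% ± 0.12 to 33.2% ± 0.68 (SD, n = 2). The authors' deposited table gives a log2 fold of 0.17 and an adjusted p of 2.64e-41. In shCtrl there were 0.943 and 0.923 reads of bin 4 per read of the unsuffixed bin, and in shPtbp1 there were 3.68 and 3.69. In raw reads, the bins that hold the 2 alternative transcript ends by rank were thus near parity in both control libraries. In both knockdown libraries bin 4 exceeded the unsuffixed bin, a 3.95-fold change of the ratio. By rank, the exon of the unsuffixed bin spans 3428 bases and that of bin 4 spans 305. Near-equal reads therefore do not mean that the 2 ends were used equally.

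**Figure D1:**
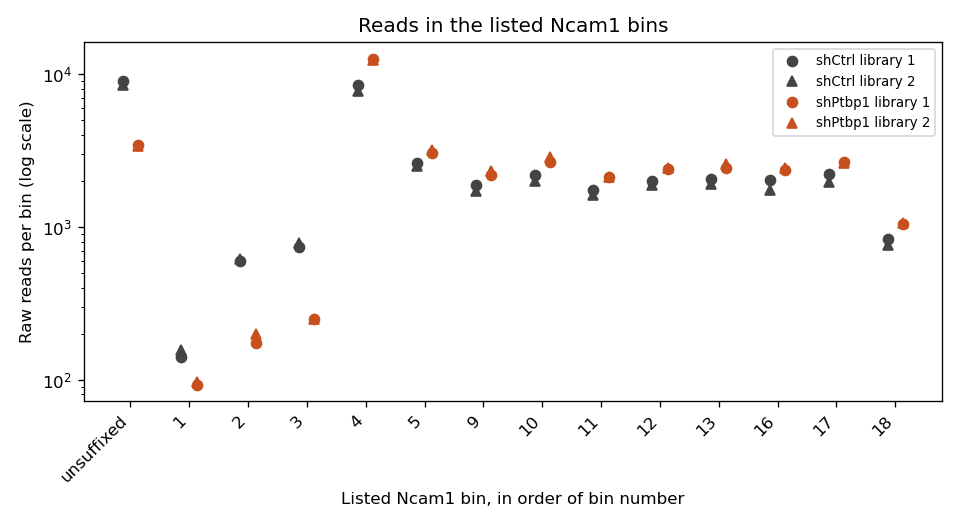
Raw reads (log axis) in each listed Ncam1 bin, in order of bin number, with 1 symbol per library. The shPtbp1 libraries lie below the shCtrl libraries in the unsuffixed bin and bins 1 to 3, and above them in bin 4 (12659 and 12465 against 8481 and 7833 reads) and in each higher-numbered bin.

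The 9 listed bins from 5 to 18 (5, 9, 10, 11, 12, 13, 16, 17 and 18), at exons shared by the 3 full-length transcripts with a RefSeq match by rank, formed a flat block. They held between 766 and 2625 reads per library in shCtrl and between 1043 and 3208 in shPtbp1. Within each bin, both knockdown libraries exceeded both control libraries in raw reads. The authors' test chose these bins, and how often all listed bins were separated in this way was not counted. Raw reads of the 9 bins were 1.22 to 1.32 times as high after knockdown. The authors' deposited table gives them log2 folds of only 0.06 to 0.11. Bin 10 had the smallest adjusted p of the block, 6.43e-09, with 2200 and 1993 reads in shCtrl, against 2671 and 2863 in shPtbp1. Bin 17 was the bin nearest to the authors' threshold, with an adjusted p of 0.00505 and with 2214 and 1966 reads in shCtrl, against 2685 and 2623 in shPtbp1; bins just outside the threshold are not listed.

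Against each other these 9 bins hardly moved. When each was expressed as a share of the summed reads of the 9 bins alone, the largest shift between groups was 0.537 percentage points, in bin 10 (12.4% ± 0.10 to 12.97% ± 0.32, SD, n = 2). The share of reads that changed bins within the block was 0.875 percentage points between the groups. It was 1.25 points between the 2 shCtrl libraries and 1.32 points between the 2 shPtbp1 libraries. The group value compares means of 2 libraries and the others compare single libraries, so averaging alone lowers the group value. The 9 bins were also all called in the same direction, and the unlisted bins have no values. Selection of this kind can also make the block look flat. The share of the 9 bins among all listed Ncam1 reads was 47.8% ± 0.50 in shCtrl and 56.4% ± 0.84 in shPtbp1 (SD, n = 2). That of the 4 lowest-numbered bins was 29.1% ± 0.62 in shCtrl and 10.4% ± 0.17 in shPtbp1 (SD, n = 2).

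**Figure D2:**
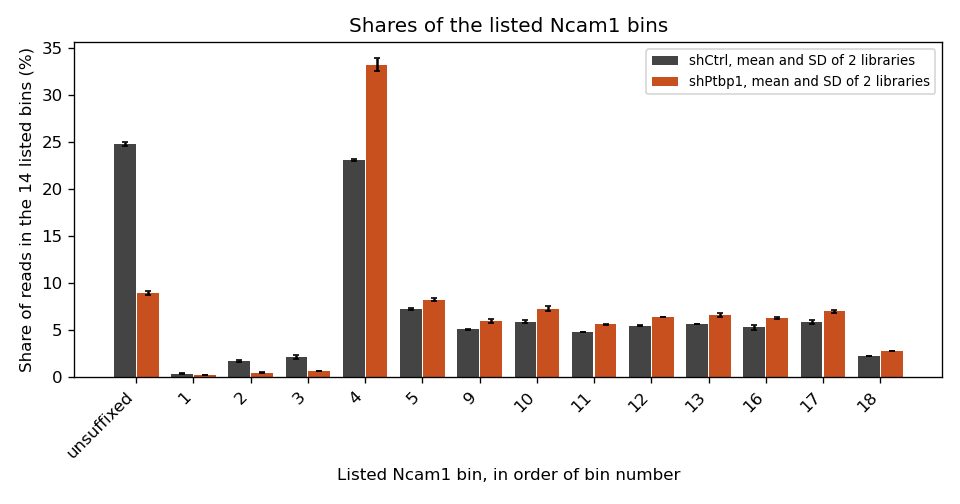
Share of the reads in the 14 listed Ncam1 bins taken by each bin (percent, mean of 2 libraries, error bars SD). The unsuffixed bin went from 24.8% to 9.02% and bin 4 from 23.1% to 33.2%, while each bin from 5 to 18 gained between 0.515 and 1.37 percentage points.

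The block of 9 bins was therefore used as a reference for the others, a choice made after its values were seen. These 9 bins are listed only because the authors' test called them, each as used more in shPtbp1. A reference selected in this way can enlarge the falls measured against it and lessen the rise of bin 4. Per 100 reads of the block, the unsuffixed bin held 51.2 and 52.7 reads in shCtrl, against 16.4 and 15.6 in shPtbp1, which is 3.24-fold lower after knockdown. Bins 2 and 3 were 4.11-fold and 3.87-fold lower on this scale, and bin 1 was 2.00-fold lower. Bin 4 held 48.2 and 48.6 reads per 100 in shCtrl and 60.4 and 57.5 in shPtbp1, a ratio of 1.22. The rise of bin 4 was thus larger than that of the block and larger than the spread between libraries (SD 0.26 in shCtrl and 2.08 in shPtbp1), while its share among all listed bins, which also moves with the loss of the unsuffixed bin, had a ratio of 1.44. On the log2 scale the 9 bins lay between -0.05 and 0.06.

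**Figure D3:**
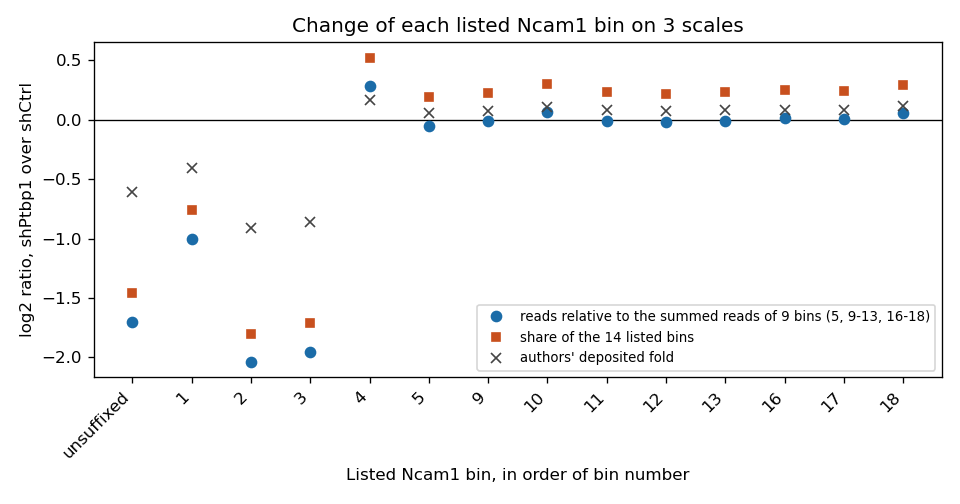
Log2 ratio of shPtbp1 over shCtrl for each listed Ncam1 bin on 3 scales: reads relative to the summed reads of 9 bins, share of the 14 listed bins, and the fold of the authors' deposited table. The unsuffixed bin and bins 1 to 3 are below 0 on every scale, bin 4 is above 0 on every scale, and the 9 bins from 5 to 18 lie above 0 as shares and between -0.05 and 0.06 relative to their own sum.

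The level of the gene was a separate quantity from the usage of its bins. All 14 bins together held 36541 and 33996 reads in shCtrl, against 37570 and 38076 in shPtbp1, so the sum of listed reads was 1.07 times as high while its distribution moved. Per 1000 reads of all listed bins of the table, the 9-bin block held 4.49 and 4.59 reads in shCtrl, against 5.77 and 6.09 in shPtbp1. Bin 4 went from 2.16 and 2.23 to 3.49 and 3.50 reads per 1000, and the unsuffixed bin and bins 1 to 3 together from 2.67 and 2.86 to 1.09 and 1.10. This scaling rests on bins that the authors had called, and with median-of-ratios scaling over the same bins the block was 1.20 times as high in place of 1.31. In bulk RNA, a change in the share of a cell type and a change of RNA per cell cannot be told apart.

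Cell type markers were read from the same tables, which hold only called bins. Of 12 neural stem cell and astrocyte markers, 4 had a called bin in shPtbp1: Aldoc, Egfr, Gfap and Prom1, with counts between 51 and 39928 in the 5 bins. Egfr, a growth factor receptor, held 9905 and 8879 reads of bin 27 in shCtrl, against 8616 and 8442 in shPtbp1, and 794 and 676 reads of its unsuffixed bin, against 908 and 847. Prom1 bin 25 held 56 and 51 reads in shCtrl, against 59 and 76 in shPtbp1, few in either group. Gfap bin 2, of the astrocyte intermediate filament, held 39928 and 34852 reads in shCtrl, against 32261 and 30128 in shPtbp1. The unsuffixed bin of Aldoc, of the astrocyte aldolase, held 9328 and 7897 reads in shCtrl, against 16298 and 15049 in shPtbp1. Of 8 neuroblast and neuron markers only Syt1, a synaptic vesicle protein, had a called bin, with 12 and 12 reads in shCtrl, against 26 and 30 in shPtbp1. Called bins of Aldoc, Prom1 and Syt1 thus held more reads in shPtbp1, that of Gfap held fewer, and those of Egfr went both ways. These are raw reads of bins called for usage, not levels of the markers. The part of cell composition in the Ncam1 result was not tested. None of 6 oligodendrocyte lineage, 4 microglia and 3 endothelial and mural markers had a called bin, and the tables give no level for them.

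Pnky knockdown gave no listed Ncam1 bin. For shPnky, 0.155% of 160603 tested bins were called. Absence means that no Ncam1 bin passed the authors' adjusted p of 0.01, and it gives no reads and no interval, so neither a change nor its absence in shPnky can be stated. Both tables use the same 2 shCtrl libraries. Whether the response of Ncam1 differed between the knockdowns was not tested.

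Among 23 genes with at least 5 listed bins in the shPtbp1 table, Ncam1 was the gene with the sixth highest redistribution. This is the share of a gene's listed reads that would have to change bins to turn the mean shCtrl distribution into that of shPtbp1, and it was 18.7 percentage points for Ncam1, against a median of 13.1 over the 23 genes. Without the unsuffixed bin it was 5.94 points for Ncam1, so much of this distance rests on that bin. No other gene was recomputed without its main bin, so the order on that footing is not known. The same measure was 1.13 points between the 2 shCtrl libraries and 1.56 points between the 2 shPtbp1 libraries of Ncam1. Near Ncam1 in this order, Camta1 (20.0 points) and Lrrfip1 (21.8) lay above it, and Rtn4 (15.5) and Gm14326 (14.9) lay below it. Likeness here means only this single number over 4 libraries.

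The shifts of these genes took different forms. In Rtn4, which encodes the reticulon Nogo, 1 bin made up the whole gain: bin 3 rose by 15.5 points, and the bin that lost most, bin 10, fell by 5.57 points. In Lrrfip1, 1 bin made up the whole loss: bin 19 dropped by 21.8 points. Ncam1 had neither form: its unsuffixed bin fell by 15.8 points and the largest gain, in bin 4, was 10.1 points. In Gm14326, as in Lrrfip1, 1 bin made up the whole loss: its unsuffixed bin fell by 14.9 points, from 67.7% ± 0.95 to 52.7% ± 1.2 (SD, n = 2).

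**Figure D4:**
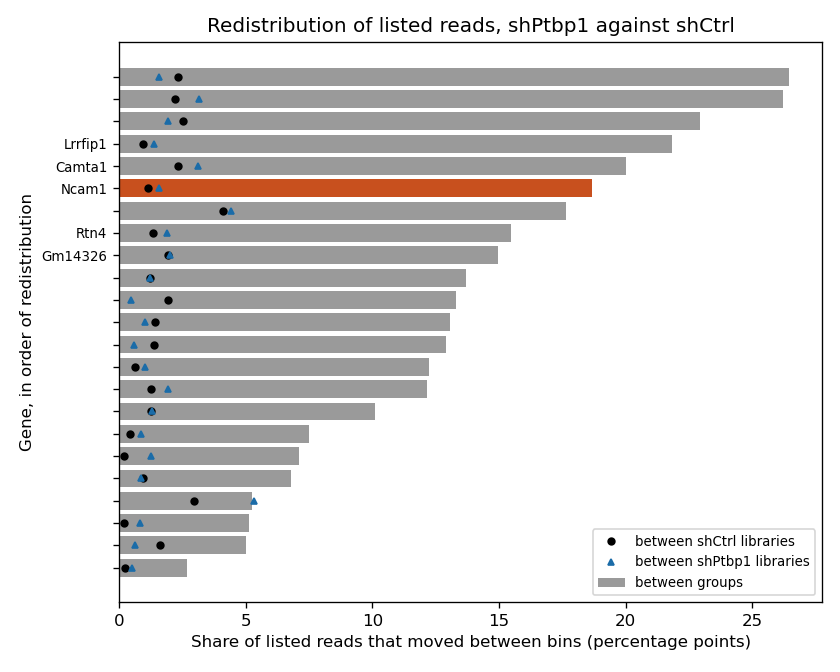
Redistribution of listed reads between shCtrl and shPtbp1 (bars, percentage points) for each gene with at least 5 listed bins, of which those named in the text are labelled, with the same measure between the 2 shCtrl libraries (circles) and between the 2 shPtbp1 libraries (triangles). Ncam1, in orange, is at 18.7 points, with 1.13 and 1.56 points between libraries of a group.

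Related genes were neural immunoglobulin adhesion genes and textbook partners of NCAM1, a list of 34 genes. In shPtbp1, 6 had a called bin. Usage of the leading bin of a gene, that of smallest adjusted p, was lower in 5 and higher in 1. Over all genes of the table it was lower in 307 and higher in 283. The tables do not give the number of genes tested, so neither 6 of 34 nor the marker counts above can be set against the share of all genes with a called bin. Of the adhesion genes, Chl1, a close homologue of L1, had lower usage of bin 26 and higher usage of bin 19 (log2 folds -0.07 and 0.13 in the authors' deposited table). Its bin 26 held 12972 and 11511 reads in shCtrl, against 7459 and 7719 in shPtbp1. Reads of its bin 19 were 710 and 616 in shCtrl, against 533 and 604 in shPtbp1, so usage rose while reads fell. Cadm1 bin 10 held 13650 and 12730 reads in shCtrl, against 9175 and 9309 in shPtbp1, while its bin 8 rose from 498 and 479 to 589 and 603. Nfasc, of the axonal adhesion protein neurofascin, had fewer reads in bin 10 (344 and 271 in shCtrl, 229 and 235 in shPtbp1) and more in its unsuffixed bin (11536 and 10712, then 16035 and 16226). Chl1, Nfasc and Cadm1 thus had called bins in both directions, as did Ncam1.

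Of the partners, usage of the leading bin was lower for Agrn, of the matrix proteoglycan agrin (bin 5, log2 fold -0.25), and for the FGF receptor gene Fgfr2 (bin 15, log2 fold -0.29). It was higher for Sptan1, of the membrane skeleton protein spectrin (bin 51, log2 fold 0.30). These folds are those of the authors' deposited table. Reads of the Fgfr2 bin did not fall: 334 and 284 in shCtrl, against 337 and 324 in shPtbp1. The polysialyltransferase genes St8sia2 and St8sia4 and the kinase gene Fyn had no listed bin. In shPnky, 2 of the 34 genes had a called bin, Cadm1 (bin 10, log2 fold -0.03) and Nrcam (bin 17, log2 fold -0.60), both lower in the authors' deposited table.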

How the data were processed

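Strand-specific, poly(A)-selected RNA libraries were sequenced, 2 each of shCtrl, shPnky and shPtbp1. Per the submitters' processing notes, reads were processed against mm9, and TopHat2 2.0.10 and Cuffdiff 2.1.1 are among the tools, each without a stated role. For the read counter and the bin annotation, the sources used here give no name. Per the file headers, the authors deposited raw counts per bin and library, p-values with adjusted p-values, a log2 fold, and fitted usage, dispersion and statistic as scores of their DEXSeq model. Bin numbers were taken from row names, since labels had lost trailing zeros (bin 10 reads as bin 1). The number of tested bins was recovered from p and adjusted p in 805 of 954 rows for shPtbp1. Shares, ratios and redistribution were computed in Python 3.11.15 (pandas 2.3.3), given as mean and SD of 2 libraries; the redistribution script was tested on simulated data. Because the authors' test chose the bins, no test was run. Depth is that of the bin counts; sampling error is largest in bin 1. Named were all Ncam1 bins, Ptbp1, the 3 genes nearest above and below Ncam1 in redistribution, and called related genes; some genes that meet this rule are not reported here. The members and lists were chosen with earlier results of these data known. Alternatives were a stricter adjusted p, a minimum mean count of 50, other denominators and scalings, a replicate block and values without 1 library at a time.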

Additional observations from a re-analysis of the deposited data

How the results depend on the processing

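The 10 higher and 4 lower Ncam1 bins were found again with a mean count of at least 50, with directions from shares, from counts scaled by the table sum or by median of ratios, and without each library in turn (10 to 10 higher). An adjusted p under 0.001 left 7 higher and 4 lower. Relative to the 9-bin block, a reference added after seeing the data, 5 were higher and 9 lower, because by construction the block then centres on 0. The size of the shifts also depended on this reference. The log2 change of the unsuffixed bin was -1.70 relative to the block. It was -1.31 with counts scaled by the table sum and -1.43 by median of ratios. Falls of bins 1 to 3 were also smaller on these 2 scalings. The rise of bin 4 was larger, at 0.67 and 0.55, against 0.28 relative to the block. The share of the unsuffixed bin, -15.8 percentage points, was -18.8 without bin 4 in the denominator and -16.0 to -15.6 without each library. Redistribution was 18.2 to 19.1 points without each library and 5.94 without the unsuffixed bin. With the unsuffixed bin left out of the denominator, the share differences of bins 5, 9, 11, 12, 13, 16 and 17 turned to -0.562, -0.216, -0.189, -0.283, -0.222, -0.122 and -0.160 points, so their direction depends on the denominator, while those of bins 1, 2 and 3 stayed lower and those of bins 4, 10 and 18 higher. A replicate block, as differences within each replicate number, averaged and with no test, gave -15.8 points for the share and 18.7 points for redistribution, as without it. With 2 libraries per group the SDs are rough, and bin 1, at 92 to 156 reads, is the least precise.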
